A study of Homo sapiens with 4 samples.

Results

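The E2F and DP genes encode the transcription factors on which the RB pathway acts. All 10 genes of this group (E2F1 to E2F8, TFDP1 and TFDP2) were taken by symbol from a table of 20263 human Ensembl genes, and all 10 passed the filter on low counts. The data are 4 RNA sequencing libraries of MDA-MB-231 cells, a long-established line of triple-negative human breast cancer. Cells were kept for 24 h with the solvent DMSO (2 libraries) or with the compound Neoribocic (2 libraries). The labels' treatment protocol names Rib_CA, which is read here as the same compound, and the labels give no dose. All libraries come from this 1 line. Since no label ties the 2 libraries of a condition to cultures grown apart, p-values speak only of how far these samples scatter, and that scatter may be technical.

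E2F proteins bind DNA as dimers with a DP protein, encoded by TFDP1 and TFDP2, except for E2F7 and E2F8, which bind without DP. E2F1, E2F2 and E2F3 are the activators that drive genes of S phase entry once cyclin-dependent kinases have phosphorylated RB and released them. E2F4 and E2F5 act mainly as repressors with the pocket proteins p107 and p130, E2F6 represses within a Polycomb complex without any pocket protein, and the atypical E2F7 and E2F8 are repressors that are themselves E2F targets. The series title connects the compound to a block of the cell cycle, and the comparison asks how the transcripts of these factors and of the genes around them stood after treatment.

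Several of these genes lie behind promoters that carry E2F-like letters, which is why the sequences are shown first. The motif TTTCCCG was searched together with its relatives TTTCGCG and also TTTGCCG and lastly TTTGGCG on both strands in the 250 bases upstream of each RefSeq start (build GRCh38.p14), for 8 of the 10 genes. E2F5 and E2F8 are named only. Of the 8 genes, 5 (E2F1, E2F2, E2F3, E2F6 and TFDP1) had a match in at least 1 promoter, as did 8.86% of the 27305 gene symbols with a promoter in the table. The last 120 bases before the start are printed below for the activators, for TFDP1 and, as a promoter with no match, for E2F7. Capitals mark the matches, and in E2F1 a forward and a reverse match overlap.
E2F1 promoter, chr20:33686386-33686505, minus strand: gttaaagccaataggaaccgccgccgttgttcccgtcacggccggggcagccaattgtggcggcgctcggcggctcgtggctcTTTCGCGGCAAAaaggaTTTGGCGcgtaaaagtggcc
E2F2 promoter, chr1:23531234-23531353, minus strand: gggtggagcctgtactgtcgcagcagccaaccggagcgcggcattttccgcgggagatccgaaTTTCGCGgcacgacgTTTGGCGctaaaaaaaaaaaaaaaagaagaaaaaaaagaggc
E2F3 promoter, chr6:20401759-20401878, plus strand: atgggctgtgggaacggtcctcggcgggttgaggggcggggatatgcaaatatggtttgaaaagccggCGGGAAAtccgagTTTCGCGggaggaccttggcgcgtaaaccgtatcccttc
TFDP1 promoter, chr13:113584633-113584752, plus strand: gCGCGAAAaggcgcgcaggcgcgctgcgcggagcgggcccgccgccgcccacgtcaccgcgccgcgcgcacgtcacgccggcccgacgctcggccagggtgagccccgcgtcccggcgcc
E2F7 promoter, chr12:77065570-77065689, minus strand: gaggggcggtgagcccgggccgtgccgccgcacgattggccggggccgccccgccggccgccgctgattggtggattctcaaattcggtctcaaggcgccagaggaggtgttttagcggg

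In E2F1 the 3 matches begin 37, 32 and 20 bases before the start, in E2F2 the 2 begin 57 and 42 bases before it, and in the first of 2 E2F3 promoters they begin 52 and 39 bases before it. A match is only a run of letters, and none of these libraries measured binding of a factor. Of the 5 genes with a match, E2F2 and TFDP1 fell and E2F1, E2F3 and E2F6 did not pass the test.

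With Neoribocic E2F8, TFDP1 and E2F2 fell, and none of the 10 genes rose. The calls come from edgeR's quasi-likelihood test with an adjusted p below 0.05 over all 13879 genes tested. That is 3 of 10 genes called, against 40.4% of all genes; 21.3% of all genes were lower and 19.1% higher. In this main fit the share among the 10 genes is thus below that of all genes, and the group was not a place of unusually many calls. That reading depends on the processing. With a fit corrected for length and GC content of the transcripts, described below, 6 of the 10 were called, against 36.3% of all genes. In the higher direction of the main fit 0 of the 10 also had an unadjusted p below 0.05, and 0 were called by DESeq2 or limma-voom. The 2 groups of libraries did not overlap in 7 of the 10 genes, against 75.1% of all genes.

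Levels are given as CPM, which are counts relative to the library total after scaling by edgeR's TMM factors.

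**Figure D1:**
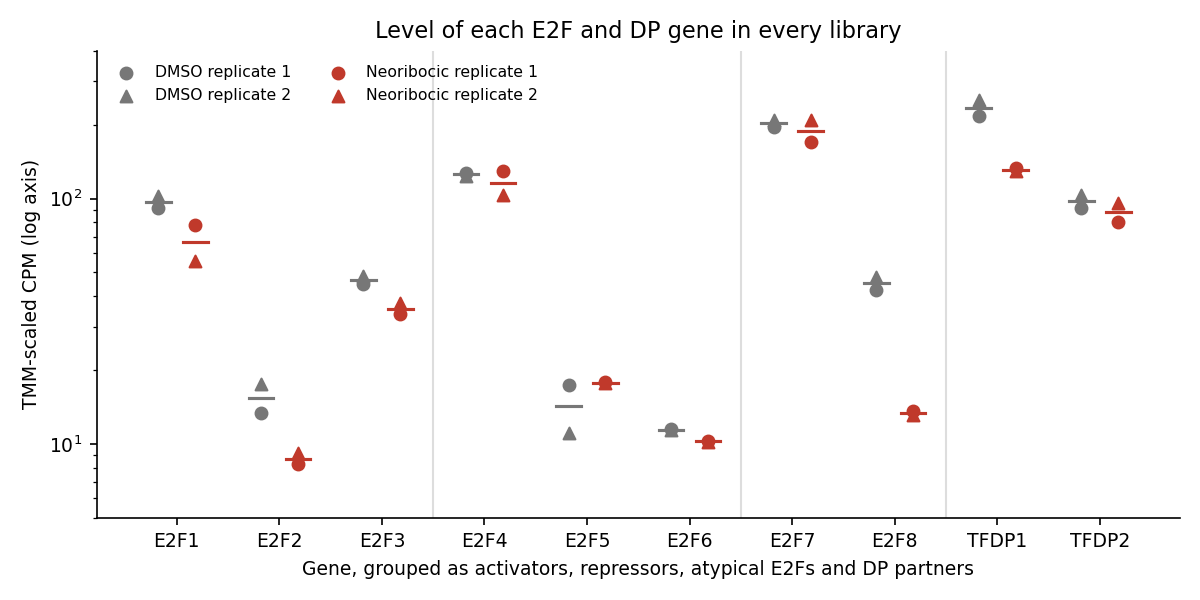
Level in TMM-scaled CPM (log axis) of the 10 genes in each of the 4 libraries, with a short line at each group's mean and grey lines between the classes. E2F8 and TFDP1 show the widest gaps between the groups, whereas the points of E2F4, E2F7 and TFDP2 overlap.

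The atypical E2Fs differed from each other. E2F8 (ENSG00000129173) stood at 42.5 and 47.7 CPM in the DMSO libraries and at 13.6 and 13.1 CPM with Neoribocic. The groups are far apart and each pair of libraries is close. The mean was 45.1 ± 3.67 CPM with DMSO and fell to 13.4 ± 0.361 CPM (SD, n = 2 each), which is a log2 fold change of -1.75 ± 0.22 (SE; edgeR adjusted p = 0.00115), and it passed in all 18 alternative analyses, with log2 values from -1.84 to -1.45.

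E2F7 (ENSG00000165891), which shares the repression of E2F targets with E2F8, stood at 195 and 210 CPM with DMSO and at 170 and 208 CPM with Neoribocic. Its groups overlap. The log2 fold change was -0.10, with a 95% interval from -0.54 to 0.34 and an edgeR adjusted p of 0.710. When the fit was corrected for length and GC content of the transcripts, it was 0.45 with an edgeR adjusted p of 0.0497, so the direction of E2F7 depends on the processing. Per kilobase of transcript, the ratio of E2F7 to E2F8 was 2.81 and 2.69 in the DMSO libraries and 7.64 and 9.72 in the Neoribocic libraries. The 2 groups of ratios do not overlap, which with 2 libraries against 2 gives an exact two-sided permutation p of 0.333, the smallest that this design allows.

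The activators were all lower in both Neoribocic libraries than in either DMSO library, and 1 of the 3 passed the test. E2F2 (ENSG00000007968), the least abundant of the 3, had 13.3 and 17.5 CPM with DMSO and 8.26 and 9.18 CPM with Neoribocic. Its log2 fold change was -0.82 ± 0.25 (SE; edgeR adjusted p = 0.0309). The call was not stable: the edgeR adjusted p was 0.130 without DMSO replicate 2, 0.160 without Neoribocic replicate 1 and 0.0848 without Neoribocic replicate 2. It was 0.115 with library totals and 0.0533 with upper-quartile factors.

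E2F1 (ENSG00000101412), the best known activator, stood at 91.7 and 102 CPM with DMSO and at 78.0 and 55.5 CPM with Neoribocic. The groups do not overlap, but the 2 Neoribocic libraries lie farther from each other than the nearer of them lies from DMSO. E2F1 missed the threshold at a log2 fold change of -0.54 (95% interval -1.05 to -0.02; edgeR adjusted p = 0.0884). The correction brought it to -1.08 with an edgeR adjusted p of 0.00529. Leaving out Neoribocic replicate 2 brought it to -0.31.

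E2F3 (ENSG00000112242) had 44.9 and 48.5 CPM with DMSO and 33.8 and 37.4 CPM with Neoribocic. Its libraries do not overlap either, yet its log2 fold change of -0.39 (95% interval -0.87 to 0.08) had an edgeR adjusted p of 0.160, and after the correction the value was -0.01. The table counts whole genes, so the E2F3a and E2F3b transcripts, which start at separate promoters, are not told apart.

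Among the repressors none passed the test. At unadjusted p below 0.05, and with DESeq2 or limma-voom, the genes called in the whole group of 10 were likewise lower only (4, 3 and 3 genes). E2F4 (ENSG00000205250), the most abundant E2F per kilobase on 1 transcript per gene, had 127 and 124 CPM with DMSO and 129 and 103 CPM with Neoribocic. Its groups overlap, and its log2 fold change of -0.11 had a 95% interval from -0.56 to 0.34 (edgeR adjusted p = 0.669). The correction brought E2F4 to -0.62, which passed (edgeR adjusted p = 0.0184), whereas it stood slightly above 0 with library totals (0.05), with upper-quartile factors (0.01) and without Neoribocic replicate 2 (0.04).

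E2F5 (ENSG00000133740) was the only gene of the group with a positive log2 fold change, 0.32 (95% interval -0.29 to 0.93; edgeR adjusted p = 0.365). It had 17.4 and 11.1 CPM with DMSO and 17.9 and 17.6 CPM with Neoribocic. DMSO replicate 1 is close to both treated libraries and DMSO replicate 2 is the low one, so that without DMSO replicate 2 the value was 0.04 and without DMSO replicate 1 it was 0.68. DMSO replicate 2 is also the library in which mitochondrial genes held the largest share of counts, 21.7% against 5.76% to 8.68% in the others. With mitochondrial genes left out of the fit the log2 fold change of E2F5 was 0.33. In GENCODE release 29, 18.6% of the exon bases of E2F5 overlap genes on the opposite strand. Whether the counting used strand is not stated, and without strand the reads of such partners cannot be told apart.

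E2F6 (ENSG00000169016) was low and even, at 11.5 and 11.4 CPM with DMSO and 10.3 and 10.2 CPM with Neoribocic. The replicates differ less than the groups do, but the log2 fold change of -0.16 (95% interval -0.69 to 0.37) had an edgeR adjusted p of 0.606, and it was 0.16 after the correction and 0.01 with library totals. GENCODE lists 4 processed pseudogenes of E2F6, 2 of E2F3 and 1 of E2F4. None of them has a row in the deposited table, and whether reads from such copies went to these genes is not known, so these 3 levels are less certain.

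The DP partners also differed from each other. TFDP1 (ENSG00000198176), which encodes DP1, had 217 and 251 CPM with DMSO and 133 and 129 CPM with Neoribocic, with a wide gap between the groups. The mean was 234 ± 23.7 CPM with DMSO and fell to 131 ± 2.27 CPM (SD, n = 2 each), which is a log2 fold change of -0.84 ± 0.19 (SE; edgeR adjusted p = 0.00918). The call was lost without Neoribocic replicate 1 (edgeR adjusted p = 0.0611) and kept in the other 17 alternatives. TFDP2 (ENSG00000114126), which encodes DP2, had 91.9 and 103 CPM with DMSO and 80.5 and 95.8 CPM with Neoribocic. Its groups overlap, and the log2 fold change was -0.15 (95% interval -0.60 to 0.31; edgeR adjusted p = 0.577), at 0.03 with library totals and 0.02 after the correction. The per-kilobase ratio of TFDP1 to TFDP2 was 2.11 and 2.16 with DMSO and 1.47 and 1.20 with Neoribocic, again without overlap and with the exact two-sided permutation p of 0.333.

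**Figure D2:**
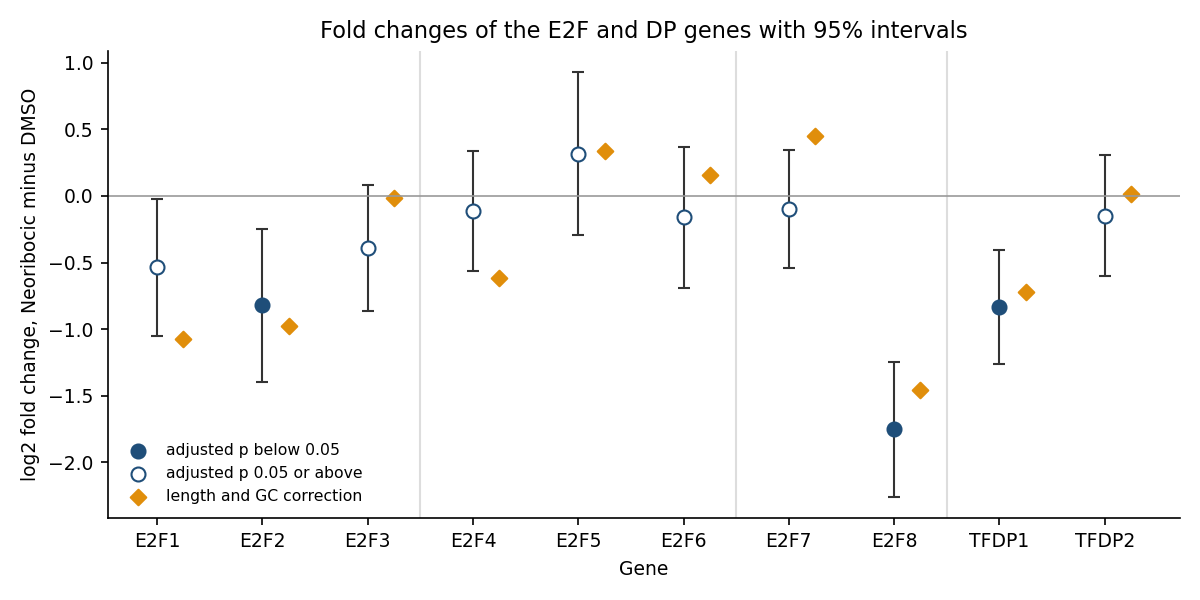
Log2 fold change of each gene (Neoribocic minus DMSO) with its 95% interval from the edgeR fit as a vertical bar, filled circles for an adjusted p below 0.05, and the value after the length and GC correction as a diamond. E2F8 (-1.75), TFDP1 (-0.84) and E2F2 (-0.82) are the filled circles, and the diamonds of E2F1 (-1.08) and E2F7 (0.45) lie far from their circles.

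The correction fits transcript length and GC content together. The transcripts of E2F1, E2F4 and E2F2 have GC contents of 62.5%, 58.1% and 57.5%, and their log2 fold changes became lower with the correction. The other 7 transcripts lie between 42.2% and 46.6%, and their values became higher, by unequal amounts: E2F5, at 43.3% and 1728 bases, went from 0.32 to 0.34, and E2F7, at 43.1% and 5740 bases, from -0.10 to 0.45. With the correction 6 of the 10 genes were called, against 36.3% of all genes. Of the 6 genes, 5 were lower (E2F1, E2F2, E2F4, E2F8 and TFDP1) and 1 was higher (E2F7). The calls of E2F8, TFDP1 and E2F2 are the ones that both versions hold.

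Levels can be compared between genes only per length, here as TMM-scaled CPM per kilobase of 1 GENCODE transcript per gene. With DMSO the mean levels were 88.4 for TFDP1, 59.8 for E2F4, 41.4 for TFDP2, 38.7 for E2F1 and 35.2 for E2F7. E2F8 followed at 12.8, E2F3 at 9.83, E2F5 at 8.25, E2F6 at 3.55 and E2F2 at 2.97 CPM per kilobase. In this order the libraries of TFDP2 and E2F1 overlap, as do those of E2F3 and E2F5, so these neighbours do not differ beyond their spread. With Neoribocic E2F4 (55.3) stood first and TFDP1 (49.5) next, with overlapping libraries, and E2F8 (3.80) came below both E2F5 (10.3) and E2F3. These places hold for the 1 transcript used. TFDP2 has 2360 bases in that transcript and 11897 over all annotated exons. Its place, and the size of the ratio of TFDP1 to TFDP2, thus depend on this choice.

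The summed E2F transcripts came to 169 and 174 CPM per kilobase in the DMSO libraries and to 148 and 134 in the Neoribocic libraries. Activators made up 28.8% and 31.3% of this sum with DMSO and 26.9% and 23.7% with Neoribocic. Repressors made up 43.9% and 39.9% with DMSO and 50.6% and 46.5% with Neoribocic. The libraries of the groups do not overlap in either share. Atypical E2Fs made up 27.3% and 28.8% with DMSO and 22.6% and 29.8% with Neoribocic, which overlap. Within the atypical class, however, E2F8 went from 7.15% and 7.81% of the sum to 2.61% and 2.78%. The order of the classes, and of several genes, depends on the length used. With the length of all annotated exons in place of 1 transcript, a choice made after the data were seen, activators held 37.8%, atypical E2Fs 32.1% and repressors 30.1% on average with DMSO, and 33.0%, 31.4% and 35.6% with Neoribocic. On that length E2F1 (28.9%) stood above E2F4 (26.2%) with DMSO. E2F5 (1.81%) then stood below E2F2 (2.11%) and E2F6 (2.10%) with DMSO, though their libraries overlap. With Neoribocic E2F8 (3.04%) stood above E2F5 (2.83%). On either length the activator share was lower and the repressor share higher with Neoribocic, but the repressor sum itself did not separate the groups, at 74.1 and 69.2 CPM per kilobase with DMSO and 75.1 and 62.5 with Neoribocic. These shares carry no length and GC correction, under which E2F4 (-0.62) was lower and E2F7 (0.45) higher, so they hold for the uncorrected levels. Put as a ratio on 1 transcript per gene, repressors over activators came to 1.52 and 1.27 with DMSO and to 1.88 and 1.96 with Neoribocic, without overlap (exact two-sided permutation p = 0.333). TFDP1 over the summed E2Fs came to 0.486 and 0.546 with DMSO and to 0.338 and 0.364 with Neoribocic. The class medians of the log2 fold changes were -0.54 for the 3 activators, -0.11 for the 3 repressors, -0.93 for the 2 atypical E2Fs and -0.49 for the 2 DP genes, and with 2 or 3 genes a class such a median mostly repeats single genes.

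**Figure D3:**
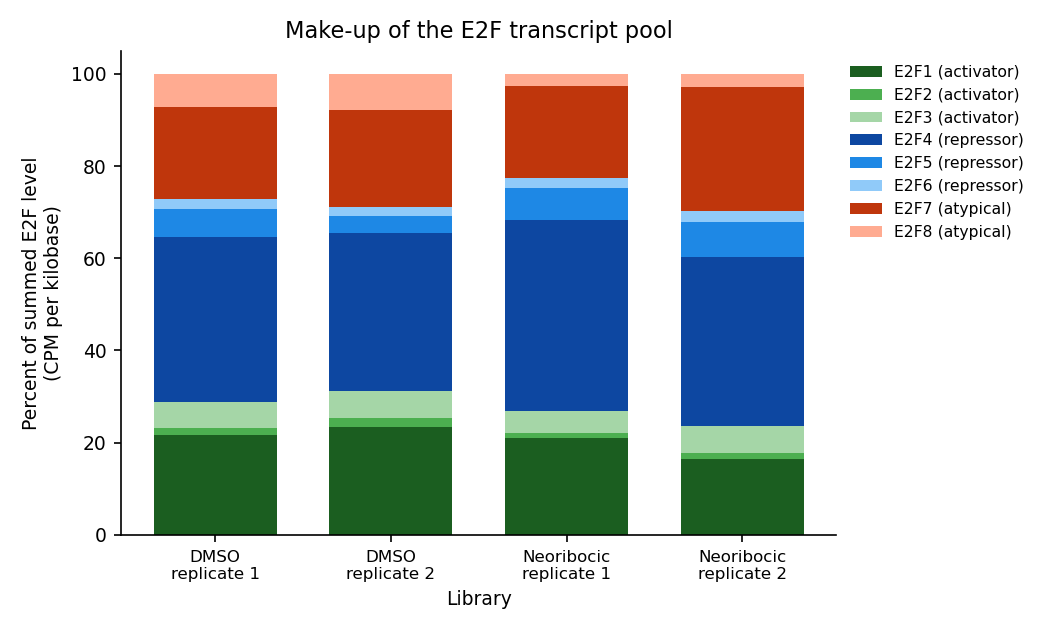
Share of each E2F gene in the summed E2F level (CPM per kilobase) of each library, stacked to 100%, with activators in green, repressors in blue and atypical E2Fs in orange. E2F4 is the widest band in every library, and the top band, E2F8, narrows from 7.15% and 7.81% with DMSO to 2.61% and 2.78% with Neoribocic.

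By the fixed rule, the genes most like E2F8 were SPTBN1, ITSN1 and NASP. They had the smallest distances (0.0543, 0.0760 and 0.0854) between log2 CPM values, each centred on its own mean over the 4 libraries, among 10807 genes with a mean of at least 5 CPM. SPTBN1 encodes a spectrin, ITSN1 an endocytic scaffold and NASP a histone chaperone. For E2F5 the same rule gave APIP, KIAA0930 and TCEAL1, at distances of 0.0853 to 0.0873. With 4 libraries in 2 groups such a distance mostly describes the size of the group difference and the spread within it.

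The lists from here on were chosen with earlier results of these data known, so their contrasts with all genes are descriptive only. Among the genes that E2F activates at the G1 to S transition, 24 of 34 fell and 0 rose. Of all genes 21.3% were lower and 19.1% higher. The list's median log2 fold change was -1.16, against 0.01 over all genes tested. With library totals 21 fell and CDT1, named here after its value was seen, was called higher (0.65; edgeR adjusted p = 0.0496). In the higher direction 0 also had an unadjusted p below 0.05, and DESeq2 and limma-voom called 0. POLA1, which encodes the catalytic part of the polymerase that starts new strands, went from 55.2 and 37.6 CPM to 5.18 and 6.80 CPM, a log2 fold change of -2.95 ± 0.29 (SE; edgeR adjusted p = 6.29e-04). CCNE2, which encodes cyclin E2 and of whose exon bases 37.1% overlap genes on the opposite strand, went from 64.5 and 60.1 CPM to 9.37 and 11.5 CPM. MCM6, a subunit of the replicative helicase, went from 137 and 112 CPM to 23.7 and 27.6 CPM. In all 3 genes the groups are far apart. The log2 fold changes of the 24 ran from -2.95 (POLA1) to -0.69 (ORC1), and the other 10 did not pass, with CDT1 the highest at 0.47. The 6 subunits of the replicative helicase did not go together: MCM3, MCM4 and MCM6 fell (-1.90, -1.87 and -2.28), whereas MCM2, MCM5 and MCM7 did not pass the test at -0.03, -0.34 and -0.02. The transcripts of the first 3 have a GC content of 43.1% to 51.6% and those of the last 3 of 56.6% to 58.1%, and whether this plays a part was not tested beyond the length and GC correction. With that correction the first 3 stood at -1.93, -1.66 and -1.87 and the last 3 at -0.32, -0.58 and -0.40, of which MCM5 passed (edgeR adjusted p = 0.0332). Of 26 targets whose promoters were searched in the same way, 12 held an E2F-like match. Of those 12, 9 fell, and of the 14 without a match 9 fell as well.

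Transcripts of the pocket proteins, which hold E2Fs in check, fell, whereas those of the cyclin-CDK system upstream went in both directions. In the list of pocket proteins and the cyclin-CDK system upstream, 4 of 14 tested genes rose and 5 fell, against 19.1% and 21.3% of all genes, with a median of -0.27; CDKN2A and CDKN2B, which complete the 16, did not pass the filter on low counts, with at most 4 counts in a library. RB1 and RBL1, the genes of RB and p107, fell from 90.5 to 35.8 and from 98.9 to 41.0 CPM on average, log2 fold changes of -1.34 ± 0.22 and -1.27 ± 0.20 (SE; edgeR adjusted p = 0.00268 and 0.00216). With the correction they stood at -0.74 and -0.62 and still passed. RBL2, the gene of p130, is named here after its value was seen. It fell from 76.7 to 37.7 CPM on average, a log2 fold change of -1.02 ± 0.22 (SE; edgeR adjusted p = 0.00719). CDK6, a kinase of RB, fell from 96.1 and 66.2 CPM to 21.4 and 32.1 CPM (edgeR adjusted p = 0.00386; corrected log2 fold change -0.67). CDKN2D and CDKN1C, which encode CDK inhibitors, rose by 1.83 and 1.72 (corrected 1.11 and 1.06), and CCND2, the gene of cyclin D2, rose by 1.61. Without DMSO replicate 2 or Neoribocic replicate 1 CDKN1C had edgeR adjusted p values of 0.0626 and 0.0668. Without Neoribocic replicate 1 the list had 5 calls in place of 9.

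MuvB is the complex that joins E2F4 or E2F5 and a pocket protein in DREAM, and B-MYB or FOXM1 later in the cycle. Of its 8 listed genes, 5 fell and 1 rose, against 21.3% and 19.1% of all genes, with a median of -0.78. With the correction 3 fell and 2 rose, and the median was -0.22. FOXM1, the factor of G2 and M phase genes, fell by 0.99 ± 0.19 (SE; edgeR adjusted p = 0.00496), and the MuvB genes LIN54 and LIN9 fell by 1.17 and 1.05. LIN37, another MuvB subunit, rose from 4.65 and 6.07 CPM to 15.9 and 14.5 CPM (edgeR adjusted p = 0.00332; corrected log2 fold change 0.82), although genes on the other strand cover 41.8% of its exon bases and genes on its own strand 26.7%. The edgeR adjusted p of LIN54 was 0.0544 without DMSO replicate 2, 0.0704 without Neoribocic replicate 1 and 0.209 with the correction. That of LIN9 was 0.0679 without DMSO replicate 1 and 0.0915 without Neoribocic replicate 1, and its corrected log2 fold change was -0.61. The list had 3 calls without DMSO replicate 2 and 2 without Neoribocic replicate 1.

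E2F6 works in the Polycomb complex PRC1.6, and of its 10 listed partners 2 fell and 0 rose, with a median of 0.09 (-0.12 with the correction). That count is close to the 21.3% lower among all genes and says nothing particular of these partners. In the higher direction 0 had an unadjusted p below 0.05 in edgeR, and DESeq2 and limma-voom called 0. MGA, the scaffold of the complex, fell from 72.8 and 59.8 CPM to 17.3 and 20.4 CPM, a log2 fold change of -1.81 ± 0.23 (SE; edgeR adjusted p = 0.00113; corrected -0.97). RNF2, its ubiquitin ligase, fell by 0.63, a call lost whichever of the 4 libraries was left out (edgeR adjusted p = 0.0920 to 0.205), with the correction (-0.15) and with 2 of the other scalings. Of 16 genes of a list of mostly germline genes taken as E2F6 targets, 6 passed the filter on low counts. Of these 6, 0 were called by edgeR with TMM scaling, DESeq2 or limma-voom, against 40.4% of all genes with edgeR. With only 6 genes this count says little of the list. TUBB3 (38.4 and 54.4 CPM) and TDRKH (21.5 and 20.7 CPM) were plainly present with DMSO. Their presence is not read as germline expression. A gene on the same strand covers 35.8% of the exon bases of TUBB3, so its level is less certain. With library totals MEI1 was called higher (1.71; edgeR adjusted p = 0.0466), and with the correction TUBB3 was called lower (-1.16; edgeR adjusted p = 0.00696). In the main analysis 1 of the 6, MEI1, had an unadjusted edgeR p below 0.05, at 6 and 8 counts with DMSO and 22 and 32 with Neoribocic. MEI1, TUBB3 and TDRKH are named here after their values were seen. The other 10 genes, among them the meiotic genes SYCP1 and DAZL, had at most 7 counts in any library.

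Among the apoptosis genes activated by E2F1, 2 of 12 tested genes rose and 3 fell, with a median of 0.15. The 5 calls are close to the 40.4% called among all genes, so they set the list apart in no way. TP73, the p53 relative that E2F1 induces, fell from 7.16 and 11.6 CPM to 3.01 and 2.70 CPM, a log2 fold change of -1.71 ± 0.32 (SE; edgeR adjusted p = 0.00449). BCL2L11 (BIM) fell by 1.51 and MAP3K5 (ASK1) by 0.80 (corrected -0.43), while PMAIP1 (NOXA) rose by 0.68 and CASP8 by 0.71. The last 4 calls are fragile. PMAIP1 and CASP8 lost theirs whichever of the 4 libraries was left out (edgeR adjusted p = 0.0553 to 0.111 and 0.0512 to 0.131), and BCL2L11 and MAP3K5 lost theirs without DMSO replicate 1 (0.137 and 0.156), Neoribocic replicate 1 (0.0598 and 0.168) or Neoribocic replicate 2 (0.138 and 0.0763). MAP3K5 also missed the threshold with library totals (0.128), with upper-quartile factors (0.0522) and with the correction (0.147). The list held 1 to 3 calls when a library was left out.

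Of 15 cofactors and turnover factors of E2F, 7 fell and 1 rose, against 21.3% and 19.1% of all genes, with a median of -0.56. KAT2B, the acetyltransferase PCAF, fell by 1.84 ± 0.26 (SE; edgeR adjusted p = 0.00155), TRRAP, a scaffold of acetyltransferase complexes, fell by 1.26 (corrected -0.76) and SKP2, a ubiquitin ligase subunit, by 1.07 (corrected -0.62). FZR1, which encodes the APC/C activator CDH1, rose by 0.88. The edgeR adjusted p of SKP2 was 0.0749 without Neoribocic replicate 1, and that of FZR1 was 0.0839 without Neoribocic replicate 1, 0.0564 without DMSO replicate 2 and 0.0586 with the correction (0.48). Without DMSO replicate 2, Neoribocic replicate 1 or Neoribocic replicate 2 the list had 3, 2 and 5 calls.

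**Figure D4:**
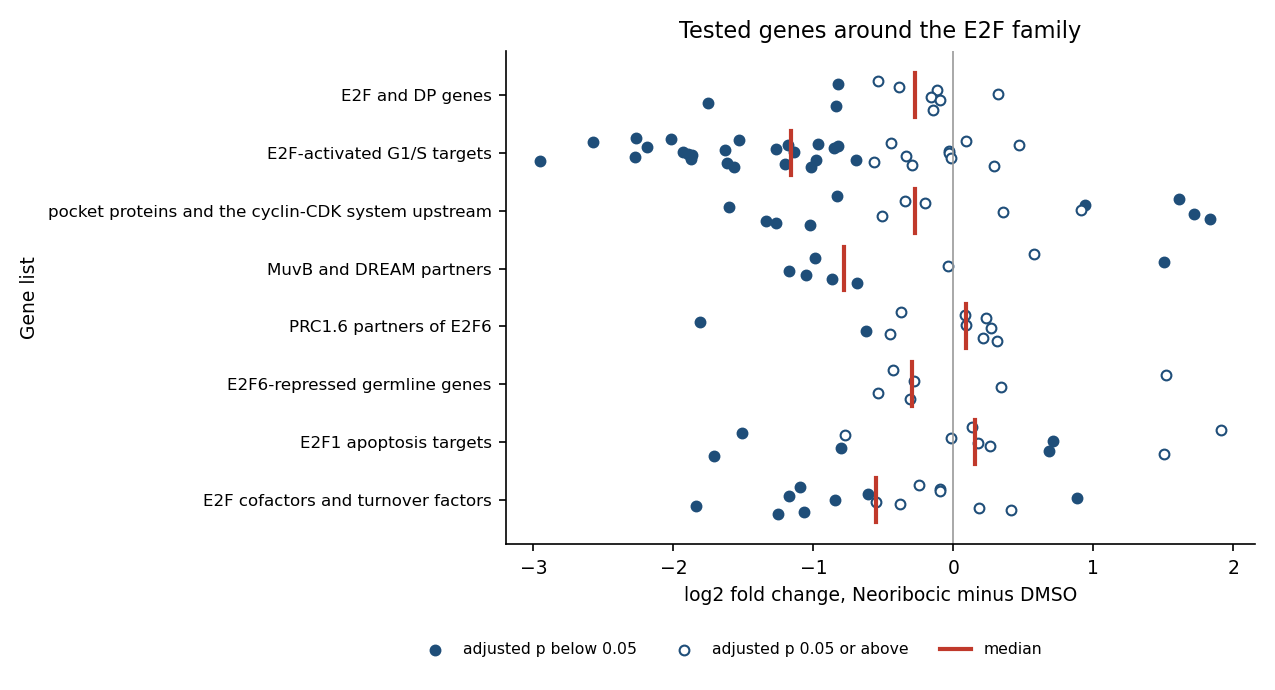
Log2 fold change (Neoribocic minus DMSO) of every tested gene of the E2F and DP group and of the 7 lists around it, filled where the edgeR adjusted p is below 0.05, with a red line at each list's median. The targets activated by E2F sit mostly to the left, with a median of -1.16, while the E2F and DP genes themselves have a median of -0.28.

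The libraries held 34774542 to 43014212 counts. Of 9 markers of the line, 8 reached at least 10 CPM in every library and their summed level was 9556 to 12000 CPM with DMSO and 8704 to 8817 CPM with Neoribocic. Of these 9 markers 2 rose (S100A4 and LGALS1) and 3 fell (CAV1, CD44 and AXL), against 19.1% and 21.3% of all genes. The 5 are named after their values were seen. Of 12 markers of other breast lines and cell types, 4 reached 10 CPM in every library: ERBB2, KRT8, KRT18 and KRT19, at 65.5 to 498 CPM. The sums were 811 to 996 CPM with DMSO and 906 to 1197 CPM with Neoribocic, and CDH1, ESR1 and PTPRC stayed under 1 CPM. The part of these markers in the results was not tested. In such libraries fewer cells in a cycle phase and less RNA per cell cannot be told apart.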

How the data were processed

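RNA sequencing counts were analysed for 2 DMSO and 2 Neoribocic libraries. The authors deposited unnormalized counts for each Ensembl gene; the aligner, counter, use of strand and human build are not stated, and the submitters' processing notes list only mouse builds. Genes kept by filterByExpr were fitted with edgeR 4.0.16 (R 4.3.3): TMM scaling, robust quasi-likelihood, group as the only term, Benjamini-Hochberg adjustment over all genes tested, threshold 0.05. The SE is the log2 fold change divided by the square root of F. The fit was tested on simulated data in which 200 genes were set to change. Of 60 simulated shifts by a factor of 1.5 it detected 5. For a factor of 2 it detected 18 out of 70, and for a factor of 4 it detected 60 out of 68. False calls numbered 24, among 13494 genes simulated without a shift, beside the 5, 18 and 60 true calls. The false share of the simulated calls was thus above the 0.05 that the threshold aims at. In the data 40.4% of all genes were called, far more than were changed in the simulation, so these rates need not hold for the real fit. Some simulated shifts by a factor of 4 were missed as well. A gene that did not pass the test may thus still differ, and the simulation sets no upper limit to the difference. Alternatives used DESeq2 1.42.0, limma-voom (limma 3.58.1) and a length and GC surface (mgcv 1.9.3) from 1 GENCODE 29 transcript per gene, principal where marked.

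The genes and lists were chosen with earlier results of these data known. Named are all 10 E2F and DP genes, up to 3 called genes per list and direction with the smallest p, and the 3 nearest patterns of the leading lower and higher gene. Promoters are from RefSeq.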

Additional observations from a re-analysis of the deposited data

How the results depend on the processing

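E2F8 passed, and E2F3, E2F5, E2F6 and TFDP2 missed, the threshold in all 18 alternative analyses. Leaving out a library gave 2468 to 4536 genes called in place of 5610, 1 to 3 of the E2F and DP genes in place of 3, and 21 to 22 of the E2F-activated targets in place of 24. Without Neoribocic replicate 1 only E2F8 of the group passed. An adjusted p below 0.01 left 2883 genes. The length and GC correction gave 6 calls among the 10 E2F and DP genes, and 5 together with the replicate block, against 36.3% and 35.3% of all genes. Uncalled genes changed sign as follows. With upper-quartile factors E2F4 was at 0.0067 and E2F7 at 0.027. With library totals E2F4 was at 0.0496, E2F6 at 0.0106, E2F7 at 0.0831 and TFDP2 at 0.0349. Leaving out a library gave -0.276 to 0.0418 for E2F4 and -0.249 to 0.0498 for E2F7, positive without Neoribocic replicate 2 and replicate 1. With the correction E2F6 was at 0.16, E2F7 at 0.45 and TFDP2 at 0.018, and with the correction and the block at 0.16, 0.45 and 0.0227. The cause was not tested. These scalings moved the median of all genes from 0.01 to 0.13 (upper quartile) and 0.18 (totals), and the share of calls that were higher from 47.2% to 56.8% and 59.6%.

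The labels do not say whether libraries of the same number share more than the number. Their deviations from the group means correlated at -0.05 across genes, which with 2 libraries per group does not settle it. With the replicate block 5594 genes, 3 of the E2F and DP genes and 23 targets were called, the E2F1 apoptosis list had 8 calls in place of 5, RNF2 missed the threshold (edgeR adjusted p = 0.0805), and so did LIN9 with the block and the correction (0.0552). Of 114 counts in the other lists, 87 stayed within 1.5 times. Counts were fewest for E2F2, E2F5, E2F6 and, after treatment, E2F8, and intervals cover only the spread between these libraries.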
